A study of Mus musculus with 4 samples.

Results

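Transcripts of 9 genes were followed, the secreted netrins Ntn1, Ntn3 and Ntn4 and the netrin receptors Dcc, Neo1, Unc5a, Unc5b, Unc5c and Unc5d, out of 55487 gene identifiers measured. They were found by gene symbol. Ntn1 was selected on its edgeR p, the smallest of all genes in the comparison of counts described here, so its difference is given as a description with no test. The other 8 genes were added because they belong to its family or bind it.

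RNA came from muscle stem cells (satellite cells) of 2 Tg:Pax7-nGFP mice, whose transgene places green fluorescent protein in the nuclei of Pax7-expressing cells. Minced skeletal muscle of each mouse was exposed, while it was first being digested, either to a vivo-morpholino against exon 6 of Numb or to a control morpholino. A vivo-morpholino is an antisense oligomer coupled to a delivery group; this one blocks inclusion of that exon, and Numb encodes an endocytic adaptor that restrains Notch signalling. Each mouse gave 1 library per morpholino, so there were 2 Numb exon 6 libraries and 2 control libraries. Both groups carry the transgene, and the labels used here state no age. The exposure took place in tissue pieces, before the satellite cells were isolated.

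Netrins are laminin-related secreted proteins, best known for steering growing axons. Dcc and its paralogue neogenin (Neo1) mediate attraction or adhesion, while the Unc5 receptors mediate repulsion, alone or together with Dcc, and several of these receptors promote cell death when no netrin is bound. Outside the nervous system netrins act in blood vessels and epithelia, and in cultured mouse myoblasts netrins and neogenin promote the formation of myotubes.

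The authors' estimated counts summed to 318663258 and 230431665 in the Numb exon 6 libraries of mouse 1 and mouse 2, against 355411827 and 306485954 in the control libraries. How these counts relate to sequenced fragments was not stated in the sources used here, so the depth in fragments is unknown and no counting interval is given. In this text CPM is a count scaled to the library's total with TMM factors, comparable between libraries, and TPM, which is also scaled per transcript length, is used to compare genes. Pax7, which defines satellite cells, reached 148 and 173 CPM in the Numb exon 6 libraries, against 113 and 152 CPM in the control libraries. All 10 satellite cell markers examined were detected in all 4 libraries. Numb itself had 60.3 and 58.7 CPM with its own morpholino, against 44.6 and 53.8 CPM with the control morpholino; values per gene do not show whether exon 6 was skipped.

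Ntn1 encodes netrin 1, the founding secreted ligand of this pathway. It lies on the minus strand of GRCm38 chr11:68209364-68400823. GENCODE vM21 gives it 3 transcripts, of 5738 bases in 7 exons, of 5874 bases in 8 exons and of 944 bases in 2 exons. Both long transcripts share the same coding sequence of 1812 bases and differ in their untranslated start, and the 477 coding bases of the short one are the beginning of it. The first 60 coding bases, common to the 3 transcripts, are shown with the start codon in capitals. They lie at chr11:68386061-68386120 on the minus strand (GRCm38, GENCODE vM21 transcripts).
Ntn1 coding start: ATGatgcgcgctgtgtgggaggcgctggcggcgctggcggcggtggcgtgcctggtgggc

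Netrins resemble each other in protein, so reads of 1 family member could in principle be counted for another. The longest run of identical coding bases between Ntn1 and Ntn3 was 17 bases, and between Ntn1 and Ntn4 it was 14 bases. These runs are shown because they bear on whether the values of the 3 netrins are separate: the capitals mark the shared run, and the lower case letters are the 20 bases on either side of it. The Ntn1 stretches lie at chr11:68277540-68277596 and chr11:68385229-68385282 (minus strand), the Ntn3 stretch at chr17:24207916-24207972 (minus strand) and the Ntn4 stretch at chr10:93682602-93682655 (plus strand), each within 1 coding exon of GENCODE vM21 on GRCm38.
Ntn1 beside Ntn3: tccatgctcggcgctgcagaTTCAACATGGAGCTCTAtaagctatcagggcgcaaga
Ntn3: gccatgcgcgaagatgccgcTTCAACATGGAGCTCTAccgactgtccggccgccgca
Ntn1 beside Ntn4: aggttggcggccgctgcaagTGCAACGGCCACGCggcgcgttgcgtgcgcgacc
Ntn4: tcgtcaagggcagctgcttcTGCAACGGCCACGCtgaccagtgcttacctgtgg
None of the 5825 stretches of 50 bases along the 5874-base transcript occurred in an annotated transcript of another gene, and no exon of another gene overlaps an Ntn1 exon.

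Ntn1 had 3549 and 3125 estimated counts in the Numb exon 6 libraries of mouse 1 and mouse 2, against 221 and 208 in the control libraries. Scaled to the libraries these are 11.1 and 13.4 CPM with the Numb exon 6 morpholino and 0.633 and 0.680 CPM with the control morpholino. The groups lie far apart, and within each group the mice are close together. In CPM the Numb exon 6 library was 17.5 times the control library in mouse 1 and 19.6 times in mouse 2. EdgeR put the log2 fold change over both mice at 4.22 ± 0.23 (SE of the fit to 2 libraries a group), a description of the values that chose the gene.

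In TPM, Ntn1 was 3.70 and 4.47 in the Numb exon 6 libraries, against 0.235 and 0.222 in the control libraries, a ratio of 15.7 in mouse 1 and 20.1 in mouse 2. These are modest levels even at their highest. With the Numb exon 6 morpholino, 60.4% and 62.4% of the 27551 tested genes had a lower TPM than Ntn1 in mouse 1 and mouse 2, against 25.0% and 23.4% with the control morpholino. Ntn1 therefore stood above the middle of the tested genes in the Numb exon 6 libraries and well below it in the control libraries. In bulk RNA, more cells with the transcript and more transcript per cell cannot be told apart.

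The size of the Ntn1 difference was uncommon. A log2 CPM ratio above 4 in both mice was found for 21 of the 27551 tested genes (0.0762%). Among the 14464 genes with a mean of at least 1 CPM Ntn1 was the single one. That level was chosen after the values were seen. Ntn1 passes it only through the Numb exon 6 libraries, since it had 0.633 and 0.680 CPM in the control libraries. The rule that chose Ntn1 used this contrast, so nothing is read from its place. In CPM both Numb exon 6 libraries lay above both control libraries for 2 of the 9 genes, Ntn1 and Unc5a, where 17.4% of all tested genes did so. Both lay below for 2 more, Ntn3 and Dcc, where 17.1% of all tested genes did so. In TPM the groups were apart upwards for Ntn1 alone (20.3% of the genes tested on that scale) and downwards for Dcc alone (14.1%), which was itself under the level tested there.

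**Figure D1:**
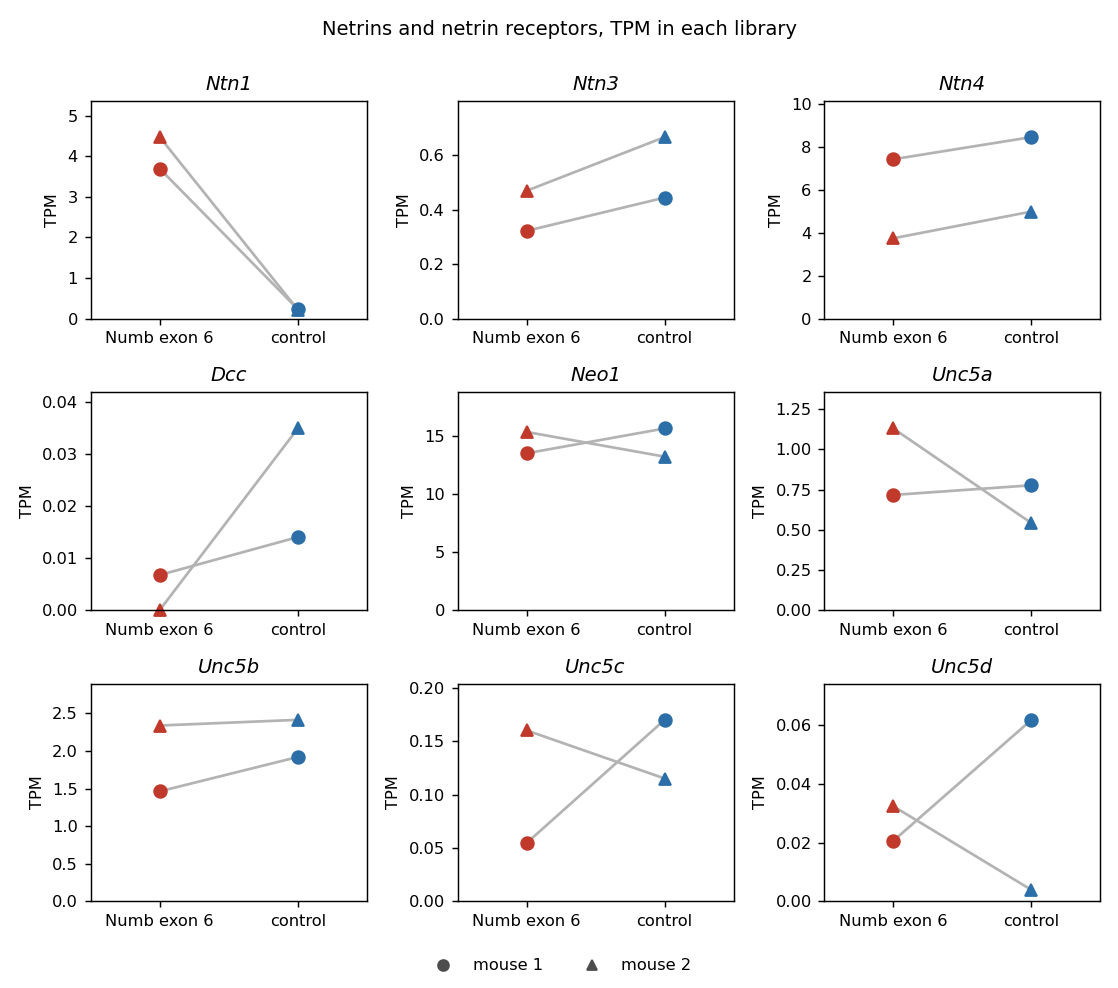
TPM (y axis, each panel with its own scale from 0) of the 9 genes in the Numb exon 6 libraries (red, left) and the control libraries (blue, right), with circles for mouse 1, triangles for mouse 2 and a line joining the libraries of a mouse. Ntn1 is at 3.70 and 4.47 TPM against 0.235 and 0.222 TPM, while the lines of Neo1, Unc5a, Unc5c and Unc5d cross and those of Ntn4 and Unc5b show mice set apart by more than the morpholinos.

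Neither of the other netrins showed a difference of the size of that of Ntn1. Ntn3, a netrin that also binds neogenin, had 0.831 and 0.894 CPM in the Numb exon 6 libraries, against 1.00 and 1.54 CPM in the control libraries. Both Numb exon 6 values lie below both control values, but the control libraries differ from each other by more than the groups do in mouse 1. EdgeR gave a log2 fold change of -0.56 ± 0.37 (SE of the fit to 2 libraries a group, adjusted p = 0.999). In TPM the groups overlapped, at 0.322 and 0.469 with the Numb exon 6 morpholino and 0.444 and 0.666 with the control morpholino. Ntn3 (chr17:24203848-24209531, minus strand) shares 89 exonic bases with Tbc1d24 on its own strand and 139 with the antisense gene BC028777. The library method kept no strand, so reads in those bases cannot be assigned to one gene.

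Ntn4 encodes a netrin of basement membranes that binds laminin. It had 5.23 and 3.19 CPM in the Numb exon 6 libraries of mouse 1 and mouse 2, against 6.86 and 3.83 CPM in the control libraries. Each Numb exon 6 library was somewhat lower than the control library of its mouse, and the libraries of mouse 1 were above those of mouse 2 under both morpholinos. The gap between the mice was thus larger than the gap between the morpholinos. The edgeR log2 fold change came to -0.34 ± 0.39 (SE, adjusted p = 0.999), and in TPM the values were 7.42 and 3.74 with the Numb exon 6 morpholino and 8.45 and 4.98 with the control morpholino. Ntn4 lies on the plus strand at chr10:93640681-93747207.

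Neo1, the receptor neogenin, binds netrins and the repulsive guidance molecules and was the most abundant of the 9 genes per transcript length. It had 13.5 and 15.3 TPM in the Numb exon 6 libraries, against 15.6 and 13.2 TPM in the control libraries. The values cross: the Numb exon 6 library was lower in mouse 1 and higher in mouse 2. On counts, 39.2 and 48.4 CPM stood against 45.8 and 44.7 CPM, which edgeR fitted as a log2 fold change of -0.05 ± 0.15 (SE, adjusted p = 0.999). This was the smallest SE among the 9 genes. Neo1 lies on the minus strand at chr9:58874687-59036441.

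Dcc, the receptor through which netrin 1 attracts axons, was near the limit of detection. Its estimated counts were 12 and 0 in the Numb exon 6 libraries and 21 and 58 in the control libraries, which is 0.037 CPM for mouse 1 and a listed 0 for mouse 2 with the Numb exon 6 morpholino, against 0.060 and 0.190 CPM with the control morpholino. The groups do not overlap, but the edgeR log2 fold change, -2.67 ± 1.75 (SE, adjusted p = 0.999), depends on the prior count added to a value of 0 and gives no measured fold.

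Unc5b, the Unc5 receptor known from blood vessels, was the most abundant of the 4 Unc5 genes. It had 1.46 and 2.34 TPM in the Numb exon 6 libraries, against 1.92 and 2.42 TPM in the control libraries. In CPM it had 4.39 and 6.98 with the Numb exon 6 morpholino and 6.08 and 7.38 with the control morpholino. The groups overlap on both scales, with the mouse 1 libraries below the mouse 2 libraries of the same morpholino. EdgeR fitted a log2 fold change of -0.24 ± 0.29 (SE, adjusted p = 0.999). Unc5b lies on the minus strand at chr10:60762593-60831581.

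Unc5a, a netrin receptor that can also trigger cell death, was next in level. It had 1.36 and 1.70 CPM in the Numb exon 6 libraries, against 1.18 and 1.07 CPM in the control libraries. The groups are apart in CPM, by a log2 ratio of 0.20 within mouse 1 and 0.67 within mouse 2, and edgeR fitted 0.45 ± 0.31 (SE, adjusted p = 0.999). In TPM they overlap, at 0.717 and 1.13 with the Numb exon 6 morpholino and 0.777 and 0.541 with the control morpholino. The gene lies on the plus strand at chr13:54949411-55006018, and 34 of its exonic bases overlap Hk3 on the other strand.

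Unc5c and Unc5d, receptors best known from neurons, were both under 1 CPM in every library. Unc5c had 0.116 and 0.513 CPM in the Numb exon 6 libraries, against 0.246 and 0.324 CPM in the control libraries, and lies on the plus strand at chr3:141465216-141834924, where 118 exonic bases overlap the antisense model Gm15688. Unc5d had 0.0999 and 0.154 CPM with the Numb exon 6 morpholino, against 0.307 and 0.020 CPM with the control morpholino, and lies on the minus strand at chr8:28646717-29219636. For both genes the mice moved in opposite directions: lower in mouse 1 and higher in mouse 2. EdgeR fitted log2 fold changes of 0.14 ± 0.82 for Unc5c and -0.37 ± 1.29 for Unc5d (SE, adjusted p = 0.999 each), with wide SEs.

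Read over the 9 genes, 2 were higher in both mice in CPM (28.1% of all tested genes were), 4 were lower in both mice (27.3%) and 3 went opposite ways. A log2 CPM ratio above 1 in both mice was found for Ntn1 alone, where 3.17% of all tested genes passed. Of the 5 other genes with a mean of at least 1 CPM, the largest within-mouse log2 ratio in size was 0.78, that of Ntn3 in mouse 2. All 9 genes passed the filter on low counts. None was called by edgeR at an adjusted p under 0.05, and neither was any other of the 27551 tested genes (0.0% higher, 0.0% lower). Over all genes, 1145 had an unadjusted p under 0.05 (4.16%) and DESeq2 called 65, and on log2(TPM + 1) limma called none of 25275 (0.0%), or 22 with the mouse as a block. None of these was a netrin or receptor gene other than Ntn1, whose values chose it and whose calls are therefore not read as tests. A p that misses the threshold does not show that the receptors were alike under both morpholinos.

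**Figure D2:**
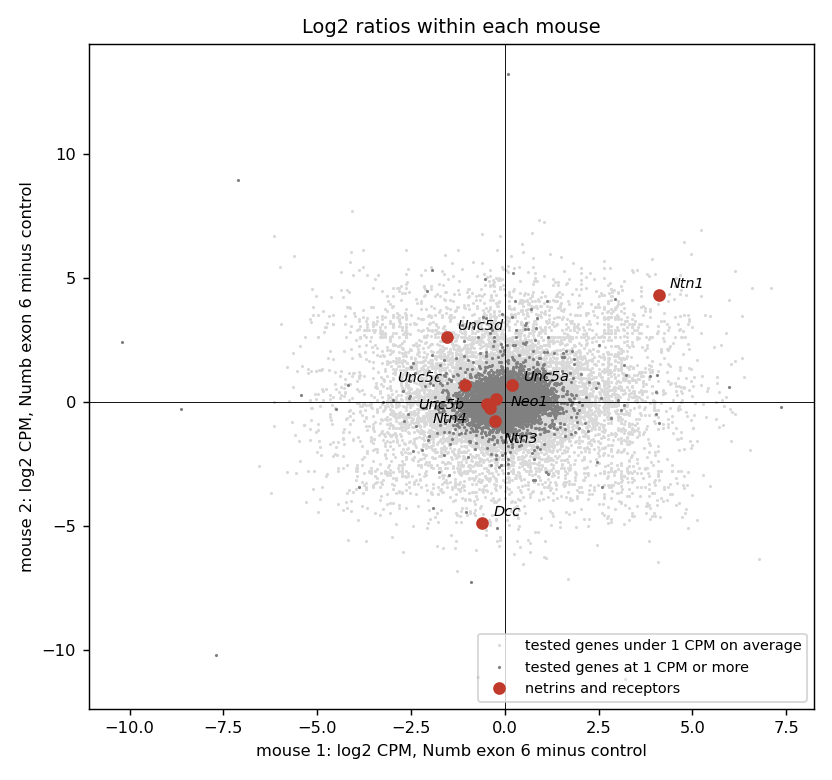
Log2 CPM ratio of the Numb exon 6 library over the control library in mouse 1 (x axis) and mouse 2 (y axis) for the tested genes at a mean of at least 1 CPM (dark grey) and below it (light grey), with the 9 genes in red. Ntn1 lies at 4.12 and 4.28, away from the dark cloud that holds Ntn3, Ntn4, Neo1, Unc5a and Unc5b, while Unc5c, Unc5d and Dcc lie among the scattered genes of low count.

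The order of the levels per transcript length differed between the groups through Ntn1. With the Numb exon 6 morpholino the mean TPM ran from Neo1 at 14.4 through Ntn4 at 5.58, Ntn1 at 4.08, Unc5b at 1.90, Unc5a at 0.924, Ntn3 at 0.396, Unc5c at 0.107 and Unc5d at 0.026 to Dcc at 0.0034. Ntn4 and Ntn1 overlapped in their ranges over the mice, and the other neighbours did not. With the control morpholino the order was Neo1 at 14.4, Ntn4 at 6.71, Unc5b at 2.17, Unc5a at 0.659, Ntn3 at 0.555, Ntn1 at 0.229, Unc5c at 0.143, Unc5d at 0.033 and Dcc at 0.024. There Unc5a overlapped Ntn3 and Unc5d overlapped Dcc. Ntn1 was thus the third of the 9 genes with the Numb exon 6 morpholino and the sixth with the control morpholino, and the other 8 kept the same order among themselves.

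The deposited counts and TPM together give the mean transcript length that was used for each gene, since the ratio of the 2 values is that length times a constant of the library. The constant was set on 2084 to 2614 genes with 1 annotated transcript per library, at least 99.96% of which came within 1% of it. For Ntn1 the implied length was 5874 bases in both Numb exon 6 libraries, the length of its longest transcript, against 5008 bases in the control library of mouse 1 and 5874 bases in that of mouse 2. In the control library of mouse 1 this corresponds to between 15.2% and 17.6% of the Ntn1 TPM on the 944-base transcript, depending on which long transcript held the rest. Counts scale with transcript length, so this share rests on a small part of the 221 estimated counts of that library. Counts and TPM of Ntn1 differed by similar factors. Its log2 ratio of count to TPM, centred on the library median, was shifted by 0.22 in mouse 1 and -0.02 in mouse 2. These shifts stand beside log2 CPM ratios of 4.12 and 4.28. Without the centring the shifts were 0.03 and -0.42.

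The other genes showed no common shift of length. Unc5b stayed within 5868 to 5872 bases in the 4 libraries, close to the 5869 bases of its longest transcript. Neo1 was at 5692 and 6214 bases with the Numb exon 6 morpholino and at 5440 and 6501 bases with the control morpholino, between its 5414-base and 7379-base coding transcripts. Ntn4 was at 1380 and 1678 bases, against 1507 and 1475 bases, far below the 3646 bases of its full transcript and above the 582 bases of its short one. If both were in the authors' annotation, part of the Ntn4 TPM was placed on the short transcript of 2 exons under both morpholinos. Unc5a was at 3705 and 2960 bases with the Numb exon 6 morpholino and at 2814 and 3784 bases with the control morpholino, which is where its counts and TPM part. Of the genes, 6 had a TPM of at least 0.1 in all 4 libraries, and none of these shifted by over 0.5 (log2) the same way in both mice, while 0.292% of the 20885 genes at that level did.

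**Figure D3:**
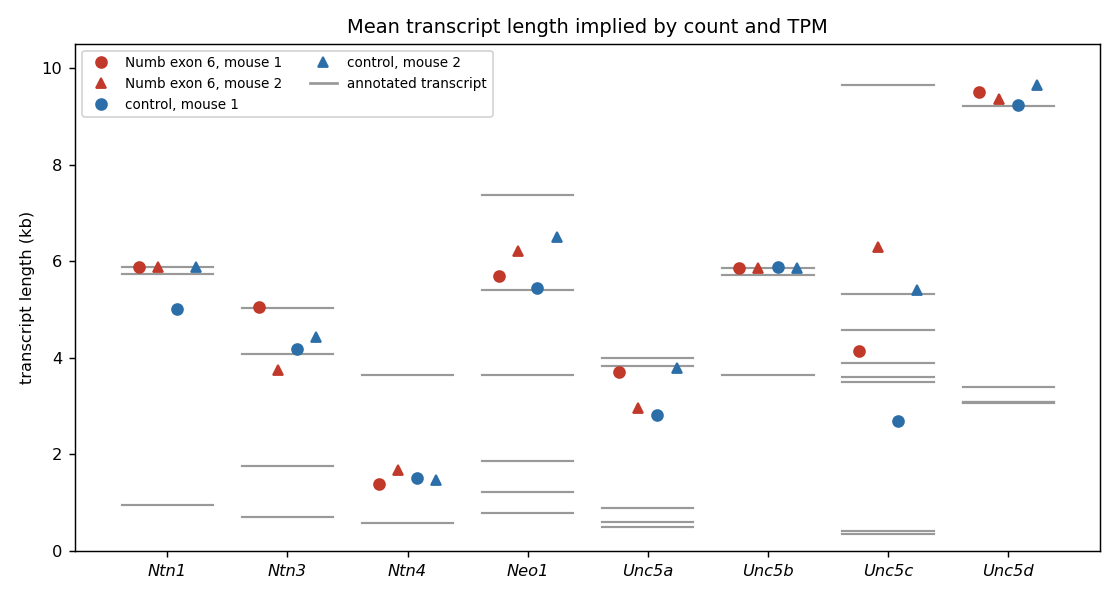
Mean transcript length in kb (y axis) implied by the deposited count and TPM for 8 of the 9 genes in each Numb exon 6 library (red) and control library (blue), with circles for mouse 1, triangles for mouse 2 and grey lines for annotated transcripts. Ntn1 is at 5874 bases in 3 libraries and at 5008 bases in the control library of mouse 1, and Dcc is left out because its Numb exon 6 library of mouse 2 is listed at 0.

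Genes around Ntn1 on chromosome 11 did not share its difference. Stx8, a syntaxin of endosomes that ends 2216 bases away, had 8.59 and 8.99 CPM in the Numb exon 6 libraries, against 7.26 and 8.72 CPM in the control libraries (log2 fold change 0.14 ± 0.19, SE). Pik3r5, a regulatory subunit of PI3 kinase gamma that starts 31298 bases from Ntn1, had 1.72 and 1.31 CPM, against 0.997 and 1.09 CPM (0.54 ± 0.32). Usp43 and Pik3r6 were under 1 CPM in all 4 libraries, with log2 fold changes of 0.41 ± 0.71 and 0.01 ± 0.46. The 4 tested neighbours had edgeR adjusted p of 0.999, and Cfap52 and Mfsd6l were too low to be tested.

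Likeness to Ntn1 was ranked by Euclidean distance between the 4 log2 CPM values of tested genes after centring. Predicted gene models (symbols with Gm and digits, Rik or a dot) were left out of the ranking. The closest genes ranked were Prrxl1 (0.28), Olfr1461 (0.37), AU015791 (0.37), Pafah1b1-ps1 (0.44) and Svs1 (0.46). All of these are listed at 0 in both control libraries and reached at most 0.144 CPM in a Numb exon 6 library, so their likeness rests on very low counts. Among genes with a mean of at least 1 CPM, a level chosen after the values were seen, the closest were Zbtb4 (0.92), Fam107b (1.85), Clcn5 (2.28), Slc35e3 (2.41) and Cipc (2.44). Zbtb4, a zinc finger repressor that binds methylated DNA, had 18.8 and 42.2 CPM in the Numb exon 6 libraries, against 2.47 and 2.36 CPM in the control libraries. Clcn5, an endosomal chloride and proton exchanger, had implied lengths of 6677 and 6772 bases with the Numb exon 6 morpholino, against 3161 and 2957 bases with the control morpholino. Slc35e3 had 5.24 and 4.97 TPM, against 5.03 and 3.90 TPM, although its CPM was 9.29 and 8.82 against 2.99 and 2.13. The centred log2 ratio of count to TPM shifted by 1.07 in mouse 1 and 1.18 in mouse 2 for Clcn5, and by 1.64 and 1.72 for Slc35e3. It shifted by 0.43 and 0.59 for Zbtb4, 0.13 and 0.40 for Fam107b and 1.11 and 0.22 for Cipc. For Ntn1 the shifts were 0.22 and -0.02.

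The remaining genes of the pathway were taken from 4 lists. Hfe2, a listed gene among the netrin relatives and partners, was not found by that symbol. Of the 119 genes found, 117 were tested. Of these 43 were higher (36.8%) and 26 lower (22.2%) in both mice, beside 28.1% and 27.3% of all tested genes. Their median log2 fold change was 0.02, where that of all tested genes was 0.005. None was called by edgeR and 6 had an unadjusted p under 0.05, where 4.16% of all tested genes did. DESeq2 called none, and with the mouse as a block it called Enah.

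Relatives of the netrins and further partners gave 19 tested genes (median log2 fold change 0.09). Of these 5 were higher (26.3%) and 3 lower (15.8%) in both mice, beside 28.1% and 27.3% of all tested genes. Ntn5, a further secreted netrin, was the most abundant netrin gene at 50.5 and 55.2 TPM in the Numb exon 6 libraries, against 47.2 and 56.7 TPM in the control libraries (log2 fold change -0.05 ± 0.14, SE). Of its stretches of 50 bases, 24.9% also occur in Sec1, which overlaps it on the other strand. Rgma and Rgmb are repulsive guidance molecules that bind neogenin. Rgmb had 71.2 and 50.7 TPM with the Numb exon 6 morpholino, against 68.8 and 67.8 TPM with the control morpholino, and Rgma had 12.7 and 14.0 TPM, against 12.5 and 10.9 TPM. Mcam, a cell adhesion molecule of vessel walls described as a netrin 1 receptor, had 14.0 and 13.0 CPM, against 7.55 and 12.7 CPM (0.41 ± 0.28). Its log2 fold change was 0.081 without the control library of mouse 1 and 0.83 without that of mouse 2. Flrt2, a membrane protein that binds Unc5 receptors, had 30.1 and 24.1 TPM, against 30.0 and 26.0 TPM. None of these passed the test.

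Signalling genes downstream of the receptors gave 40 tested genes (median -0.04). Of these 12 were higher (30.0%) and 13 lower (32.5%) in both mice, beside 28.1% and 27.3% of all tested genes. Enah, an actin regulator of the Ena/VASP family, had 30.5 and 20.4 CPM in the Numb exon 6 libraries, against 13.9 and 12.3 CPM in the control libraries, fitted by edgeR at 0.95 ± 0.24 on the log2 scale (SE, adjusted p = 0.999). The DESeq2 adjusted p was 0.0725, and 0.000204 with the mouse as a block, while the edgeR adjusted p with the block was 0.796. In TPM it had 10.7 and 13.4, against 14.7 and 12.1, so the groups overlap there, and its implied length was 5564 and 2997 bases, against 1767 and 1951 bases. Nck2, an adaptor that links receptors to actin, had 15.5 and 13.0 CPM, against 10.1 and 11.4 CPM (0.41 ± 0.18). Pak1, a kinase activated by Rac and Cdc42, had 51.3 and 42.2 CPM, against 61.0 and 68.5 CPM (-0.47 ± 0.15). Pitpna, a phosphatidylinositol transfer protein, had 48.1 and 48.2 CPM, against 60.4 and 64.7 CPM (-0.38 ± 0.12). Their groups do not overlap because the rule that named them required it, and their edgeR adjusted p was 0.999. Of the 40 tested genes, both Numb exon 6 libraries lay above both control libraries in CPM for 10 and below for 6. Over all tested genes these shares were 17.4% and 17.1%.

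The other families of guidance cues, slits, semaphorins and ephrins, gave 31 tested genes (median 0.25). Of these 18 were higher (58.1%) and 5 lower (16.1%) in both mice, beside 28.1% and 27.3% of all tested genes. Whether the list differs from all genes as a set was not tested. Sema6a, a transmembrane semaphorin, had 80.5 and 92.1 CPM in the Numb exon 6 libraries, against 60.6 and 74.9 CPM in the control libraries (0.35 ± 0.16, SE). Sema6b had 2.15 and 2.24 CPM, against 1.44 and 1.61 CPM (0.53 ± 0.27), and Sema4b had 9.33 and 9.62 CPM, against 9.65 and 11.1 CPM (-0.14 ± 0.18). The receptors of these cues gave 27 tested genes, of which 8 were higher (29.6%) and 5 lower (18.5%) in both mice (median 0.04). Robo4, a receptor of blood vessel endothelium, had 3.80 and 2.85 CPM, against 1.78 and 2.40 CPM (0.67 ± 0.30). Plxnc1 (0.10 ± 0.22), Plxna3 (-0.30 ± 0.22) and Ephb6 (-0.24 ± 0.20) differed less. All had edgeR adjusted p of 0.999.

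**Figure D4:**
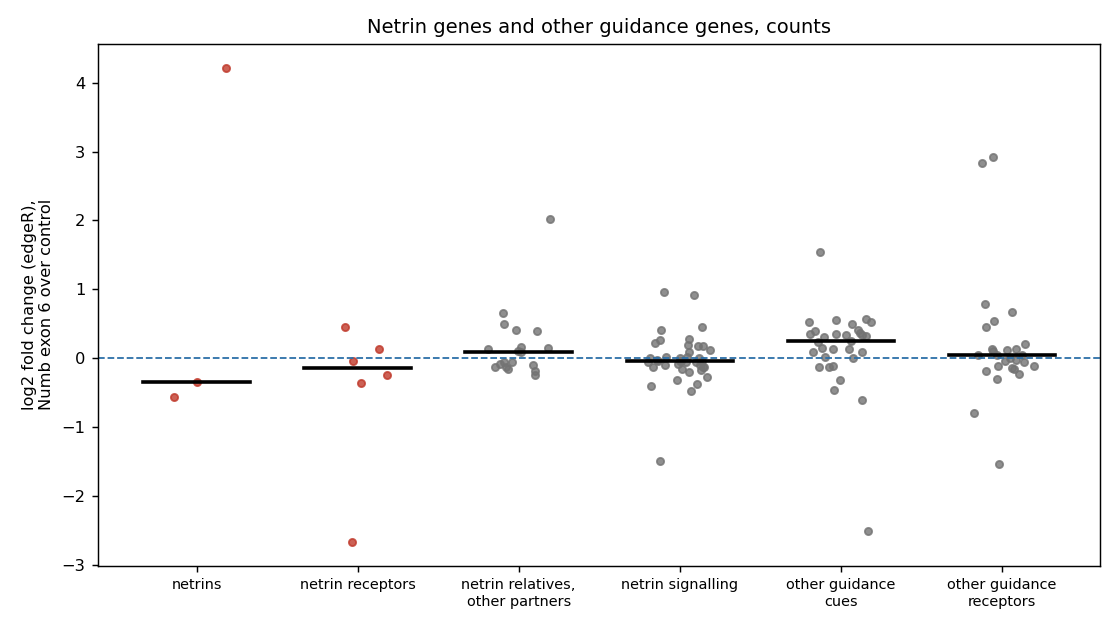
EdgeR log2 fold change of the Numb exon 6 over the control libraries (y axis) for each tested gene of the netrins and netrin receptors (red) and of 4 lists of related genes (grey), with black bars for medians and a dashed line for the median of all tested genes. Ntn1 is the point at 4.22, and the bars of the 4 lists lie between -0.04 and 0.25.

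Markers of cells other than satellite cells were present in every library. Glial markers summed to 149 and 165 CPM in the Numb exon 6 libraries, against 91.5 and 104 CPM in the control libraries. These sums were 1.63 times as high in mouse 1 and 1.58 times in mouse 2, with 5 of 10 genes higher in both mice and none lower. The median log2 CPM ratio of the 10 glial genes was 0.71 in mouse 1 but -0.01 in mouse 2. Pmp22, a myelin protein that other cells express too, was the most abundant of these markers, at 72.3 and 109.7 CPM, against 43.5 and 49.5 CPM, and Mal was at 21.6 and 20.5, against 16.3 and 22.7 CPM. In mouse 2 the higher glial sum thus lay almost wholly in Pmp22. Leukocyte markers summed to 27.9 and 44.5 CPM, against 21.6 and 21.7 CPM, 1.29 and 2.05 times. Of the 12 genes 8 were higher (66.7%) and 2 lower (16.7%) in both mice, beside 28.1% and 27.3% of all tested genes. The median log2 CPM ratio of the 12 leukocyte genes was 0.52 in mouse 1 and 1.86 in mouse 2, a larger difference than the sum shows in each mouse. Lyz2, a lysozyme of myeloid cells, was at 8.24 and 14.2 CPM, against 4.32 and 4.21 CPM. Erythroid markers, led by Hba-a1 and Hbb-bs, summed to 311 and 578 CPM, against 189 and 520 CPM. The part of these cells in the Ntn1 difference was not tested. The sums of the 8 cell types other than satellite cells were 1.00 to 2.05 times as high with the Numb exon 6 as with the control morpholino, where Ntn1 was 17.5 and 19.6 times as high.

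The endothelial sum was 227 and 172 CPM, against 177 and 166 CPM, with Tek and Pecam1 the most abundant; its part in the values of Robo4 and Mcam was not tested. The sums of fibroadipogenic (Gsn and Col3a1), smooth muscle and pericyte (Notch3 and Acta2), tenocyte (Thbs4 and Fmod) and myofibre (Actn3 and Atp2a1) markers moved by less than the endothelial sum of mouse 1, which was 1.28 times as high. Satellite cell markers, led by Sdc4 and Vcam1, summed to 15651 and 15904 CPM, against 14443 and 15099 CPM.

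**Figure D5:**
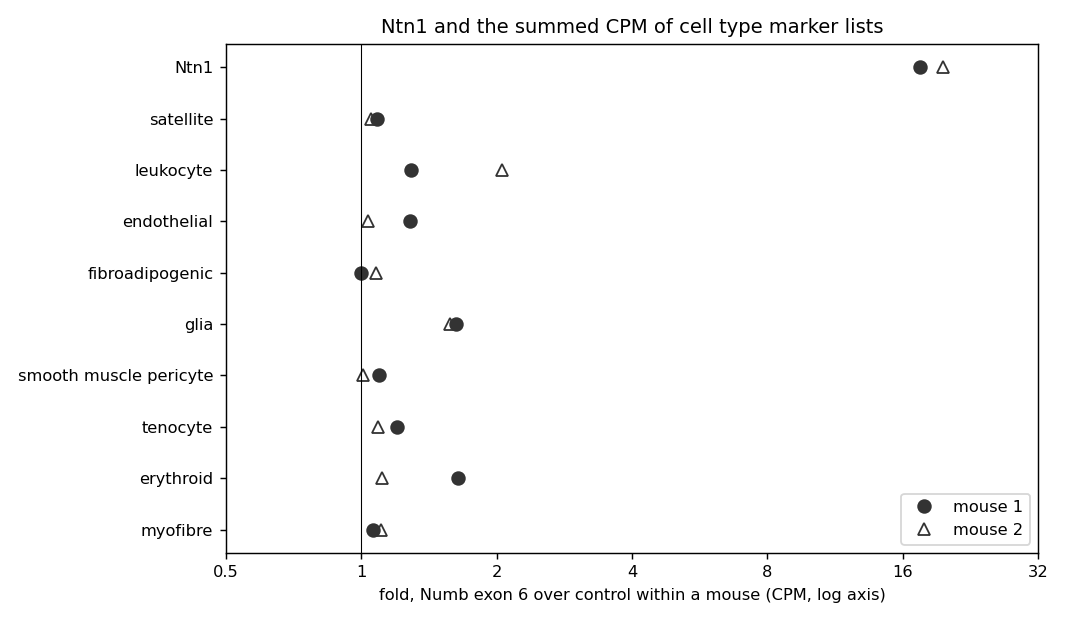
Fold of the Numb exon 6 over the control library within mouse 1 (filled circles) and mouse 2 (open triangles), on a log axis, for Ntn1 and for the summed CPM of 9 marker lists. Ntn1 lies at 17.5 and 19.6, and the marker sums lie between 1.00 and 2.05.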

How the data were processed

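The submitters' processing notes name GRCm38, HISAT2 2.1.0 and StringTie 1.3.6. Per the labels, libraries were built by SMART-Seq2, which keeps no strand, from 5 ng of RNA each. For the annotation release and read length, the sources used here give nothing. The authors deposited whole-number estimated counts and TPM per gene; for genes with 1 annotated transcript the counts are proportional, in each library, to TPM times transcript length. Group and mouse came from the labels, and column names were matched to the library names given there. The 9 genes, the gene lists and the tests were chosen with earlier results of these data known.

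Counts were tested with edgeR 4.0.16 in R 4.3.3 (quasi-likelihood, robust, TMM, default expression filter by group, no block, Benjamini-Hochberg adjustment over 27551 genes at 0.05). Log2(TPM + 1) was tested with limma 3.58.1 on 25275 genes at a mean TPM of at least 0.1; fold changes on that scale understate those of low genes. The SE of an edgeR log2 fold change is its absolute value over the square root of the quasi-likelihood F. It uses variance shared over genes and is not the spread of the libraries of a group. Within-mouse ratios use a prior count of 2. DESeq2 1.42.0 was an alternative. The tests were also run on counts simulated with no mouse effect, with TPM scaled without transcript length. That run does not check them on paired or length-scaled values. Sequences, loci and transcript lengths are those of GENCODE vM21 (GRCm38), where 55094 of the identifiers were found.

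The same animal gave both libraries of a number, so the mouse pairs the libraries. Deviations from the group means correlated within a mouse at 0.40 over the 8469 genes whose mean log2 CPM was at least 3, and at 0.06 over all tested genes. The p-values compare libraries of 2 animals.

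Named were the 9 genes; per list the 2 higher and 2 lower genes of smallest p with non-overlapping groups and a mean log2 CPM of at least 0; the 5 nearest in pattern to Ntn1; 3 coding neighbours a side; and the 2 most abundant markers per cell type. Ntn5, Rgma, Rgmb and Flrt2, and the genes nearest to Ntn1 at 1 CPM or more, were named after their values were seen; Pax7 and Numb check the labels.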

Additional observations from a re-analysis of the deposited data

How the results depend on the processing

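Leaving Ntn1 aside as the gene chosen for its change, none of the netrins and receptors was called under any alternative. For all genes, edgeR called 0 higher and 0 lower, DESeq2 39 and 26, DESeq2 with the mouse as a replicate block 104 and 55, and edgeR with no filter on low counts 5 and 5. EdgeR at a CPM of at least 5 in 2 libraries called 1 gene, which was higher. That gene was Ntn1, which passes this filter only through its Numb exon 6 libraries. Leaving out each library in turn gave 0 to 1 higher and 0 lower, the 1 being called when either the mouse 2 Numb exon 6 or the mouse 1 control library was dropped; the lone library of a group is then assumed to vary like the other group. On counts, 1 of the 9 genes, Ntn1, was called by DESeq2, by DESeq2 with the block, with no filter and at 5 CPM, and on TPM 1, again Ntn1, by limma with the mouse as a replicate block, which called 22 of 25275 genes. DESeq2 with the block also called 1 gene of the 4 lists, Enah. The log2 fold change of Ntn1 on counts lay between 4.07 and 4.34 in all 12 settings. With the replicate block edgeR called none, and only Unc5c (-0.20, DESeq2 -0.21) and Unc5d (0.56, DESeq2 0.61) turned in sign. Leaving out each library, log2 fold changes on counts ran from -0.84 to -0.23 for Ntn3, 0.27 to 0.60 for Unc5a and -8.21 to -1.64 for Dcc. They changed sign for the others but Ntn1, running from -0.75 to 0.14 for Ntn4, -0.21 to 0.095 for Neo1, -0.62 to 0.050 for Unc5b, -1.30 to 0.84 for Unc5c and -1.28 to 2.66 for Unc5d. On TPM they ran from -0.67 to 0.16 for Ntn4, -0.11 to 0.12 for Neo1, -0.36 to 0.081 for Unc5b and -0.12 to 0.022 for Unc5c. The pathway genes named by the rule of smallest p kept their sign without each library, with Sema4b nearest to 0 at -0.038. For Ntn5, Rgma, Rgmb and Flrt2 the fits without a library were not examined. The cause of these turns was not tested. Counts divided by 4, an alternative chosen after seeing the data, and DESeq2 size factors changed no call. At 5 CPM Ntn3, Unc5a, Unc5c, Unc5d and Dcc could not be fitted, nor could Dcc with divided counts. The low levels of Dcc, Unc5c and Unc5d limit what can be seen of them.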
